A study of Mus musculus with 2 samples.

Results

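The glutathione peroxidase genes Gpx1 to Gpx8 were examined in mouse uterus carrying Mettl14 f/f or Mettl14 d/d alleles. They are 8 of the 55363 gene symbols in the deposited tables and were taken by symbol, with earlier results of this same contrast known, so that their levels are a description and carry no test. RNA was sequenced from whole uterus, labelled as mixed in cell type, on gestational day 4 from females of 6 to 8 weeks mated with fertile males. There was 1 library of each genotype. Replicate error is thus unknown throughout, and higher and lower are said of these libraries only. By the usual notation f/f reads as floxed and d/d as deleted alleles, and the f/f library is taken as the control. The sources used here give no Cre driver or strain, nor whether a library came from 1 animal or from a pool.

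Glutathione peroxidases reduce hydrogen peroxide and lipid hydroperoxides with electrons from glutathione. In the mouse Gpx1 to Gpx4 are selenoproteins, in which a UGA codon is read as selenocysteine at the catalytic site, while the other members carry cysteine there. Mettl14 acts with Mettl3 to place N6-methyladenosine on RNA. On gestational day 4 the mouse uterus is prepared by ovarian hormones for embryo attachment.

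The stretch around the catalytic codon is shown because it separates the selenium-dependent members, which held nearly all of the family's expression, from the cysteine members. Each line gives 51 coding bases, 5′ to 3′ on the sense strand, read from GENCODE M21 transcripts of GRCm38, with the catalytic codon in capitals. The TGA codons are those annotated as selenocysteine, and the cysteine codons TGC and TGT were found by alignment to the Gpx1 codon.
Gpx1: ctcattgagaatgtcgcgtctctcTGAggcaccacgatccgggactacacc
Gpx2: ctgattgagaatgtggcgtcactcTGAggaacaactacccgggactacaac
Gpx3: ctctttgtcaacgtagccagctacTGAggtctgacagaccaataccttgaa
Gpx4: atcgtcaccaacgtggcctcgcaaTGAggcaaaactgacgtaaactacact
Gpx5: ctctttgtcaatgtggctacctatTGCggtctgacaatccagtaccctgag
Gpx6: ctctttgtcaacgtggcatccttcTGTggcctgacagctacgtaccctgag
Gpx7: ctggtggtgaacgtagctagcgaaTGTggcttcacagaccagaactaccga
Gpx8: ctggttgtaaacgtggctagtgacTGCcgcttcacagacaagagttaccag

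Gpx2 matched Gpx1 at 43 of these 51 bases, and the other members did so at 24 to 29. Over the aligned coding sequence Gpx1 and Gpx2 were 69.0% identical, and Gpx3 was closest to Gpx5 (71.0%) and Gpx6 (70.7%). Gpx3 and Gpx4, on which the results turn, were 58.9% identical. The catalytic codon of Gpx3 is codon 73 of a coding sequence of 678 nt, at chromosome 11, 54907256 to 54907258. That of Gpx4 is codon 129 of 759 coding nt, at chromosome 10, 80054737 to 80054739. This number holds for the transcript of 995 nt, which has the longest coding sequence of the gene. Other protein-coding transcripts of Gpx4, of 735 and 959 nt, are annotated, and the codon was not numbered in them.

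Of the 8 genes, 6 reached 1 FPKM (fragments scaled to the length of the gene model and to the mapped fragments of the library) in at least one library. Of these 6, Gpx1 and Gpx4 passed 2-fold upwards in d/d, Gpx3 passed it downwards, and Gpx2, Gpx7 and Gpx8 were neither. Fold calls were made on the log2 ratio of (FPKM + 1) between d/d and f/f. Over the 16263 genes measured by the same filter, 18.4% passed 2-fold in either direction, 10.2% higher and 8.28% lower. The members were chosen from this contrast, so nothing is read from their share. Their median log2 ratio was 0.07, beside -0.01 for all measured genes.

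**Figure D1:**
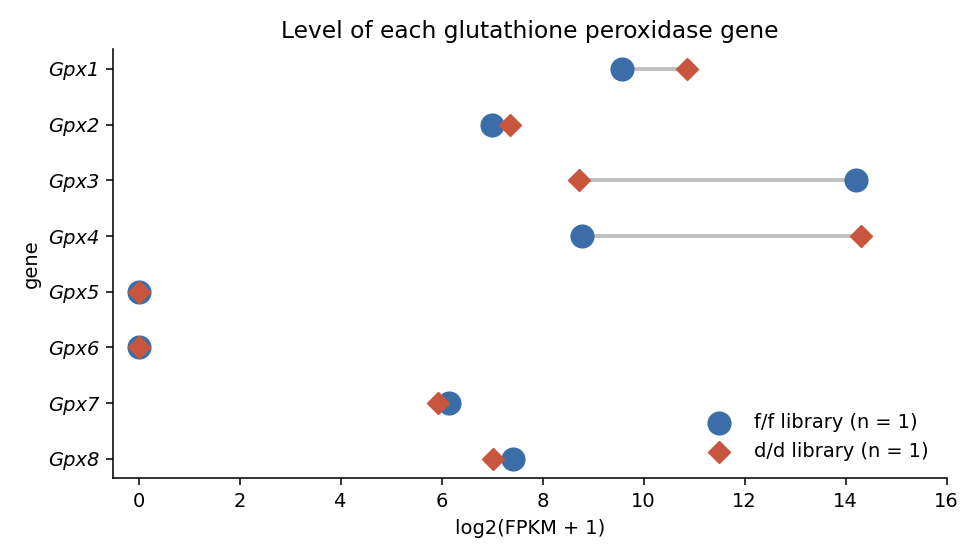
Level of each member as log2(FPKM + 1) on the horizontal axis, with a circle for the f/f library and a diamond for the d/d library (n = 1 each) and a grey line joining them. The points of Gpx3 and of Gpx4 lie far apart, in opposite directions, those of Gpx1 are a smaller step apart, and Gpx5 and Gpx6 are listed at 0 in both, where the diamond covers the circle.

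Gpx3 encodes the secreted, extracellular glutathione peroxidase. Its level was 18908 FPKM in the control and 423 FPKM in d/d. This 44.7-fold lower level in d/d is a log2 ratio of -5.48, and 14 of the 16263 measured genes, Gpx3 among them, had a ratio this low or lower. In the control it ranked at place 4 among all gene symbols by FPKM and stood above every other protein-coding gene of the nuclear genome. In d/d it ranked at place 339. The gene (ENSMUSG00000018339) lies on the plus strand of chromosome 11 from 54902453 to 54910377. It has 3 annotated transcripts of 693 to 1594 nt, all protein-coding, and none of their 50-base windows occurs in a transcript of another gene. The nearest protein-coding genes differed little: Tnip1, 408 bases away on the other strand, was 28.9 and 26.2 FPKM in control and d/d. Hint1, on the other side, was 855 and 705 FPKM. Of 7 gland markers, 5 passed 2-fold downwards and none upwards, and the 7 summed to 2277 FPKM in the control and 15.7 FPKM in d/d. Prss28 and Spink1 were at 0 in d/d, while Foxa2 and Cxcl15 stayed within 2-fold (log2 ratios of -0.42 and -0.58). These genes were named after their values were seen. Lower markers were not confined to glands: 6 of 6 for natural killer cells, 7 of 11 for stroma and 4 of 8 for endothelium also passed 2-fold downwards. Of 9 epithelial markers, 8 passed it upwards. Among all measured genes, 10.2% passed it upwards and 8.28% downwards. Which cells the Gpx3 difference came from was not tested.

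Gpx4 encodes the peroxidase that reduces phospholipid hydroperoxides within membranes and thereby restrains ferroptosis, an iron-dependent form of cell death. It stood at 440 FPKM in the control and at 20289 FPKM in d/d. The d/d level was 46.1-fold higher, a log2 ratio of 5.52, which 28 of the measured genes reached or exceeded, itself included. Its place among all gene symbols was 321 in f/f and 4 in d/d, where no other nuclear protein-coding gene was as high. The gene (ENSMUSG00000075706) lies on the plus strand of chromosome 10 from 80047166 to 80056439. Its neighbours Polr2e, at 111 and 92.6 FPKM, and Sbno2, at 23.2 and 23.6 FPKM, showed no such difference.

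Gene copies and short transcripts bear on how Gpx4 was quantified. Of its 1805 distinct 50-base windows, 34.7% also occur in Gpx4-ps2, a transcribed processed pseudogene elsewhere on chromosome 10, so the authors' estimate could divide fragments between them. A further gene model, AC122253.3, holds 75 of the windows, and its level was not looked at. Gpx4-ps2 was 737 and 782 FPKM in control and d/d, above Gpx4 itself in the control. Summed with it, Gpx4 came to 1177 and 21071 FPKM, a difference of 17.9-fold. Gpx4 also has 7 annotated transcripts, the shortest a retained intron of 280 nt, and FPKM is less certain where fragments are assigned to such short models. Their part in the Gpx4 value was not tested.

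Large differences were counted by transcript length, with Gpx3 and Gpx4 among the genes counted. Of genes that reached 100 FPKM, 153 had a shortest transcript of 200 to under 300 nt, and 5 of these differed by 16-fold or more (3.27%), Gpx4 among them and each of the 5 being higher in d/d. From 300 to under 400 nt it was 8 of 417 (1.92%), all 8 higher, and from 400 to under 600 nt 9 of 527 (1.71%), 6 higher and 3 lower. Where the shortest had 600 nt or more, the class that holds Gpx3, 22 of 519 did (4.24%), 11 in each direction. Below 200 nt it was 7 of 60 (11.7%). Over all measured genes, without the limit of 100 FPKM, 0.824% differed by this much. Without that limit it was 2.47% in the length class of Gpx4 and 0.776% in that of Gpx3. Every class at 100 FPKM lay above 0.824%, so that share is no like measure for them.

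**Figure D2:**
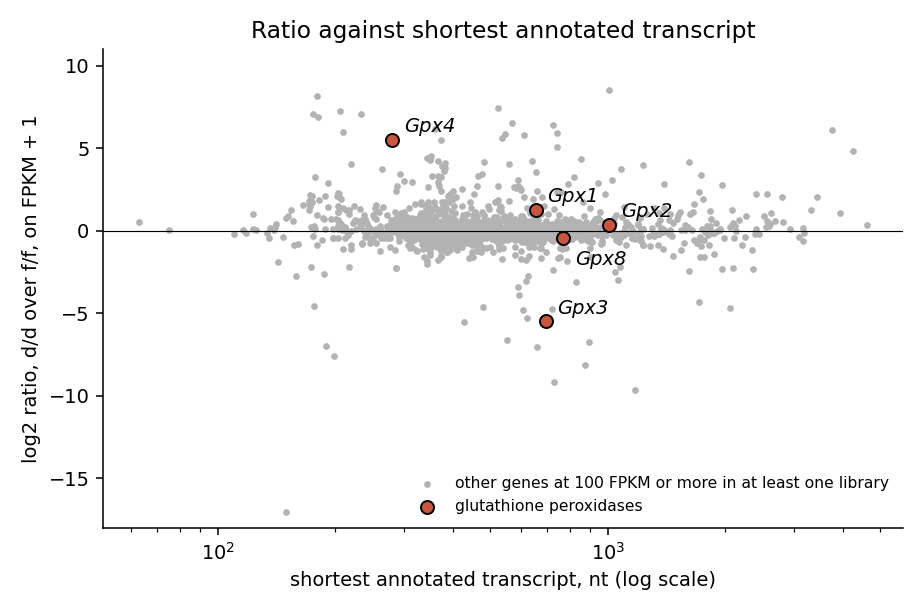
Log2 ratio, d/d to f/f (vertical), against the length of the shortest annotated transcript in nt (horizontal, log scale) for genes that reached 100 FPKM in either library; grey points are other genes and red points the 5 members at that level. Gpx4 (280 nt) and Gpx3 (693 nt) lie at ratios of 5.52 and -5.48, and large ratios occur at many transcript lengths.

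Gpx1, the cytosolic and mitochondrial enzyme that is the most widely expressed of the family, was 756 FPKM in the control and 1855 FPKM in d/d. The d/d level was 2.45-fold higher (log2 ratio 1.29), and 1091 measured genes had a ratio as high or higher. Gpx1 (ENSMUSG00000063856) lies on the plus strand of chromosome 9 from 108338903 to 108340343. The genes beside it, Rhoa at 194 and 178 FPKM and Usp4 at 42.3 and 42.1, were close to level between the libraries.

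Gpx2, an epithelial enzyme best known from the gut, was 127 and 163 FPKM in control and d/d, a log2 ratio of 0.36 that did not reach 2-fold. The gene (ENSMUSG00000042808) spans 76792333 to 76795554 of chromosome 12 on the minus strand, inside Fntb on the opposite strand, which was 15.0 and 10.6 FPKM. The sources used here do not say whether strand was used in counting, so fragments of Gpx2 and Fntb may be mixed. Of the nearest genes on either side, Churc1 was 83.8 and 86.7 FPKM, and Rab15, 2406 bases from Gpx2, was 8.44 and 21.7 FPKM, a log2 ratio of 1.27 that passed 2-fold. Of 9 epithelial markers, 8 passed 2-fold upwards in the same d/d library, as given below, beside 10.2% of all measured genes. The part of cell make-up in the value of Gpx2 was not tested.

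Gpx7 and Gpx8 are the endoplasmic reticulum members, which pass oxidizing equivalents to protein disulfide isomerases. Gpx7 was 69.9 and 59.9 FPKM in control and d/d, a log2 ratio of -0.22, the smallest difference among the detected members. Gpx8, which is anchored in the membrane, was 169 and 128 FPKM, a log2 ratio of -0.40. Both were slightly lower in d/d and neither reached 2-fold. Gpx7 (ENSMUSG00000028597) spans 108400390 to 108406961 of chromosome 4 on the minus strand, between Tut4 at 10.1 and 8.17 FPKM and Shisal2a, which stayed below 1 FPKM. Gpx8 (ENSMUSG00000021760) spans 113042753 to 113046410 of chromosome 13 on the minus strand, within Cdc20b, which was listed at 0 in both libraries. Gzma, a granzyme of cytotoxic lymphocytes 47415 bases from Gpx8, was 21.5 and 1.53 FPKM, a log2 ratio of -3.15, while Mcidas on the other side was listed at 0 in both.

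Gpx5, the epididymal member, and Gpx6, known from the olfactory epithelium, were listed at 0 in both libraries. Gpx5 (ENSMUSG00000004344) spans 21286429 to 21292731 of chromosome 13 and Gpx6 (ENSMUSG00000004341) 21312125 to 21319624, with 19394 bases between them. The gene beyond Gpx5, Trim27, was 75.2 and 89.1 FPKM, and that beyond Gpx6, Olfr1367, was listed at 0 in both libraries. At the estimated depth, a single fragment would have been worth about 0.0337 FPKM for Gpx5 and 0.0420 FPKM for Gpx6 in f/f, and 0.0286 and 0.0357 FPKM in d/d. Of 12 marker genes of the male tract and of sperm, 11 were at 0 in each library and none reached 1 FPKM.

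The family total was close to level between the libraries while its make-up was exchanged. All 8 genes summed to 20470 FPKM in the control and 22918 FPKM in d/d, a ratio of 1.12. Gpx3 made up 92.4% of the sum in f/f and 1.84% in d/d. Gpx4 made up 2.15% in the control and 88.5% in d/d. The near-equal total rests on these genes: it was 14.4-fold higher in d/d without Gpx3, 0.131 of the f/f level without Gpx4, and 1.97-fold higher without both. The selenocysteine members together held 98.8% of the sum in the control and 99.2% in d/d. The endoplasmic reticulum pair summed to 239 FPKM in the control and 188 FPKM in d/d, a ratio of 0.785.

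**Figure D3:**
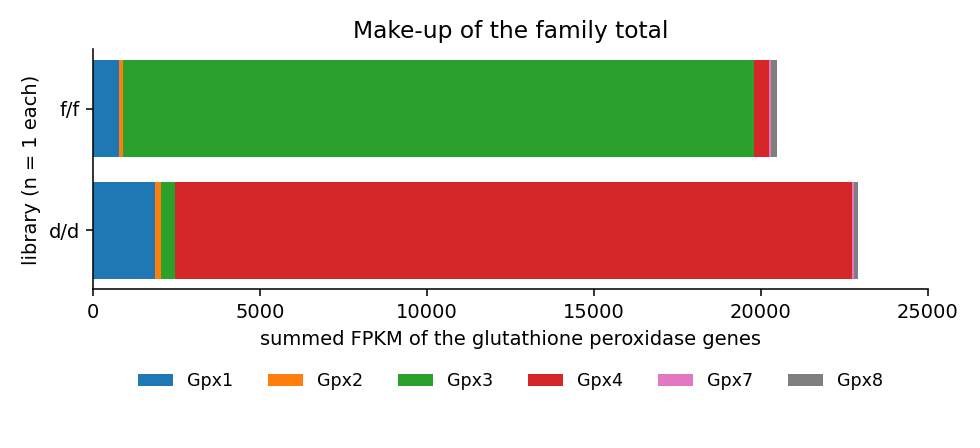
Summed FPKM of the family in the f/f and d/d libraries (1 bar each), split by gene in colour; Gpx5 and Gpx6 are at 0. The bars are of similar length, but Gpx3 fills 92.4% of the f/f bar and Gpx4 88.5% of the d/d bar.

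The order of levels, which FPKM allows because it is per length, differed at both the top and the middle. In f/f it ran Gpx3, Gpx1, Gpx4, Gpx8, Gpx2, Gpx7, with Gpx3 about 25-fold above Gpx1. In d/d it ran Gpx4, Gpx1, Gpx3, Gpx2, Gpx8, Gpx7, with Gpx4 10.9-fold above Gpx1. Gpx1 stood behind the leader in both by these values, but Gpx4 summed with Gpx4-ps2 (1177 FPKM in the control) would stand above it there. Gpx7 was the lowest detected member in both. Gpx2 and Gpx8 changed places, but within each library they differed by only 1.34-fold and 1.28-fold, and without replicates neighbours this close cannot be ordered.

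**Figure D4:**
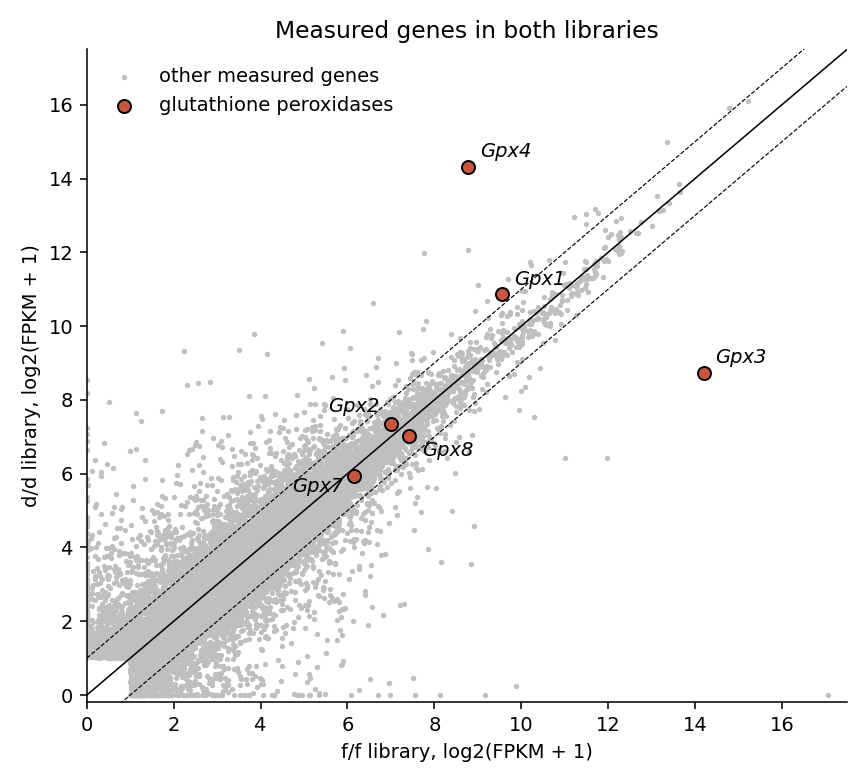
Each measured gene by its log2(FPKM + 1) in the f/f library (horizontal) and the d/d library (vertical), 1 library each; the solid line marks equality, the dashed lines 2-fold, and red points the 6 detected members. Gpx4 and Gpx3 stand far off the cloud on opposite sides, Gpx1 lies just outside the upper dashed line, and Gpx2, Gpx7 and Gpx8 lie between the lines.

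Few genes shared the level and difference of Gpx3 or Gpx4. Of the 196 genes that reached 1000 FPKM in either library, 4 were at least 16-fold lower in d/d, namely Gpx3, Ctla2a, S100g and the pseudogene Gm13392, which was listed at 0 in d/d. Another 3 were at least 16-fold higher, namely Gpx4, Txnrd1 and the pseudogene Gm6212 (S100g, Gm13392 and Gm6212 are named after their values were seen). By distance on the pair of log2(FPKM + 1) values, over 2 libraries, the gene nearest to Gpx3 was Ctla2a, an inhibitor of cysteine proteases, at a distance of 3.21 and a log2 ratio of -5.55. Lgals1, Selenop and Igfbp7 lay at distances of 3.33 to 3.55 and had ratios of only -0.98 to -0.60. Nearest to Gpx4 were Anpep at 2.25 and Txnrd1 at 2.54, with ratios of 3.28 and 4.21, followed by Ece1, Apoe and Tma7-ps at 2.99 to 3.39. A distance of 1 on this scale is 2-fold in one library, so none of these was a close match. The shortest annotated transcripts of Anpep, Ece1 and Tma7-ps have 178, 172 and 195 nt, where FPKM is less certain. Those of Txnrd1 and Apoe have 483 and 456 nt.

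Among genes that make, break down and recycle glutathione, more passed 2-fold upwards than downwards in d/d. Of the 19 listed, 6 passed 2-fold upwards, 2 passed it downwards and 11 stayed within it, and the median log2 ratio was 0.63. Over all measured genes, 10.2% passed it upwards and 8.28% downwards. Of the 11, Chac2 (9.74 and 20.3 FPKM in control and d/d) and Ggt7 (4.04 and 1.91) stayed within 2-fold only through the added 1 FPKM. Both were named after their values were seen. Anpep, a surface aminopeptidase that completes the breakdown of exported glutathione, was 439 FPKM in the control and 4263 FPKM in d/d, and its annotation includes a transcript of 178 nt. The gamma-glutamyl transferases Ggt5, at 4.85 and 33.0 FPKM, and Ggt1, at 1.08 and 9.98, begin that breakdown. Slc7a11, the cystine importer, was 0.382 and 5.37 FPKM. The remaining genes past 2-fold lie outside the rule for naming and were named after their values were seen. Gsr, which returns oxidized glutathione to the form that peroxidases use, was 33.2 and 115 FPKM, and Pgd, a source of the NADPH that Gsr needs, was 77.3 and 170 FPKM. The lower genes were the dipeptidase Dpep1, at 26.6 and 5.94 FPKM, and Ggt6, at 5.84 and 2.14. The synthesis enzymes Gclc, Gclm and Gss, also named after their values were seen, stayed within 2-fold. Their log2 ratios were 0.87, 0.25 and 0.63.

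The selenium machinery that Gpx1 to Gpx4 depend on had a smaller median log2 ratio than the glutathione list (0.12 against 0.63). Of 12 genes of selenium supply and selenocysteine insertion, 1 was higher, 1 was lower and 10 were neither. This lay near the shares over all measured genes, 10.2% higher and 8.28% lower, so nothing is read from the count. Both differences were in low-level receptors for the plasma selenium carrier: Lrp8 had a log2 ratio of 1.03, reaching 5.13 FPKM in d/d, and Lrp2 was 1.49 FPKM in the control and was listed at 0 in d/d. The carrier itself, Selenop, was 2967 and 1959 FPKM in control and d/d, a log2 ratio of -0.60.

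The other 19 selenoprotein genes, Selenop included, had 4 higher and 3 lower (median 0.04), beside 10.2% and 8.28% of all measured genes. Thioredoxin reductase 1, Txnrd1, was 217 FPKM in the control and 4029 FPKM in d/d, and the mitochondrial selenoprotein Selenoo was 4.33 and 67.1. The deiodinases, which activate or inactivate thyroid hormone, went opposite ways, with the activating Dio2 at 17.9 and 93.2 FPKM and the inactivating Dio3 at 58.8 and 4.03. The others past 2-fold, named after their values were seen, were Dio1 (listed at 0, then 2.51 FPKM), Selenoi, which makes phosphatidylethanolamine (70.5 and 17.7), and Selenov (1.06, then listed at 0). Selenoproteins outside the family thus also held large differences in both directions, with Gpx4 and Gpx3 beyond the outermost of them.

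The enzymes that remove peroxide and superoxide by other routes did not pass 2-fold on (FPKM + 1) in any of 13 cases (median -0.18). Sod3, at 1.67 and 4.12 FPKM in control and d/d, stayed within it only through the added 1 FPKM (log2 ratio 0.94). It was named after its values were seen. Prdx2, a peroxiredoxin, was 448 and 317 FPKM in control and d/d, and thioredoxin, Txn1, was 345 and 301. Of 15 measured peroxide-producing oxidases, 2 were higher and 3 lower (median 0.09), beside 10.2% and 8.28% of all measured genes. The monoamine oxidase Maob, at 83.8 and 5.50 FPKM, was lower, as were Maoa, with a log2 ratio of -1.25, and the aldehyde oxidase Aox3, at 12.4 and 1.84 FPKM. Cybb, the phagocyte oxidase subunit, was higher at 15.4 and 34.0 FPKM, as was the sulfhydryl oxidase Qsox1 at 57.1 and 117.

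Of 15 measured genes of lipid peroxidation and ferroptosis, the process that Gpx4 opposes, 3 were higher and 1 lower (median -0.03). The shares over all measured genes were 10.2% and 8.28%. The iron exporter Slc40a1 was 7.10 FPKM in the control and 108 FPKM in d/d, and its shortest annotated transcript has 263 nt. Gch1, which starts the making of tetrahydrobiopterin, was 3.24 and 9.75, and Slc7a11 was the other higher gene. The lipoxygenase Alox15 was lower at 82.2 and 16.4 FPKM.

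Of 14 measured genes for Nrf2 and its classical targets, 4 were higher and 1 lower (median 0.61). Among all measured genes, 10.2% were higher and 8.28% lower. Txnrd1 and Slc7a11, given above, were among the higher ones, as were Osgin1, with a log2 ratio of 1.19, and the factor's own gene Nfe2l2, at 54.4 and 114 FPKM and named after its values were seen. The glutathione transferase Gsta4 was lower at 23.4 and 10.2 FPKM. The remaining 9 were neither, with log2 ratios from -0.51 (Gstm1) to 0.91 (Srxn1). Among these 9, Nqo1 was at 0.14 and Hmox1 at 0.32, these genes also being named after their values were seen. Of 11 oxidative folding genes of the endoplasmic reticulum, the compartment of Gpx7 and Gpx8, only Qsox1 passed 2-fold (median 0.33).

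**Figure D5:**
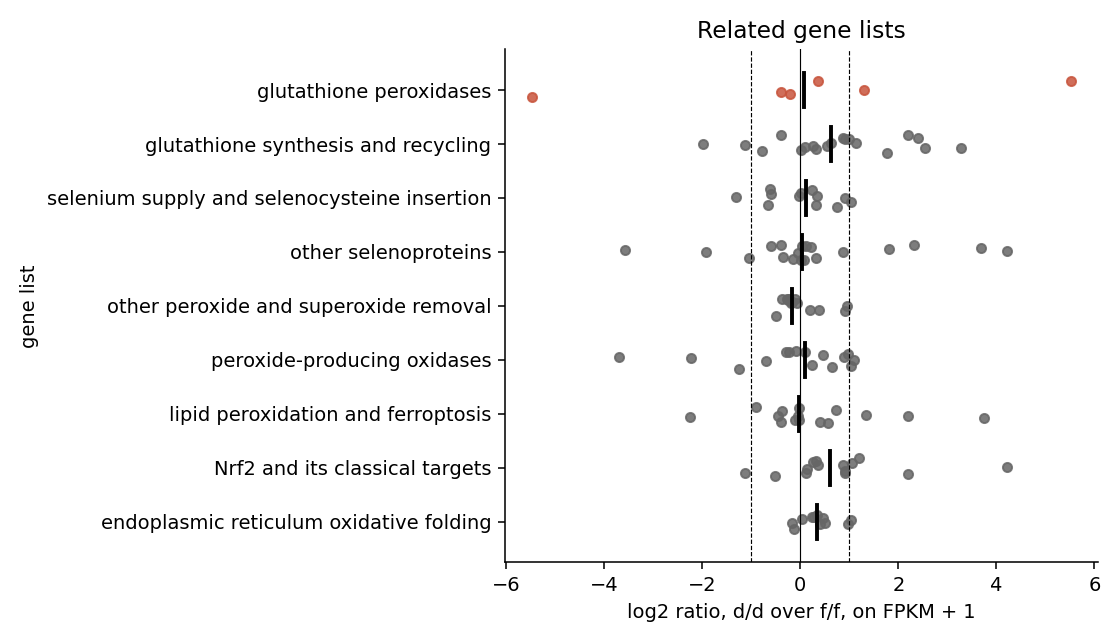
The log2 ratio (d/d to f/f) for each measured gene (point) in the glutathione peroxidase family (red) and in 8 related gene lists (grey), with a black bar at the median; points are spread vertically for visibility, dashed lines mark 2-fold, and a gene can stand in more than 1 list. The medians lie between -0.18 and 0.63, and Gpx3 and Gpx4 are the outermost points.

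Cell type markers differed between the libraries together with these genes. For comparison, 10.2% of all measured genes passed 2-fold upwards and 8.28% downwards. Of 9 epithelial markers, 8 were higher in d/d by 2-fold or more and none lower, with sums of 377 FPKM in the control and 1954 FPKM in d/d. Gland markers, given with Gpx3, were lower. Lower markers also made up 7 of 11 for stroma (5815 and 3291 FPKM in sum), 2 of 8 for smooth muscle (4920 and 3218), 4 of 8 for endothelium (382 and 183) and 6 of 6 for natural killer cells (208 and 5.53). Of 7 macrophage markers 4 were higher (774 and 1758 FPKM), as were 2 of 5 for neutrophils (13.5 and 31.4). All 5 measured fat cell markers were higher (2.96 and 113 FPKM over the 7 listed), and 4 of the 7 were at 0 in the control. None of 5 measured red blood cell markers passed 2-fold (572 and 486 FPKM). Of 4 measured oviduct markers 1 was higher and 2 were lower (109 and 80.9 FPKM). In whole uterus, fewer cells of a type and less RNA per cell cannot be told apart, and the part of cell make-up in the values of Gpx3, Gpx4 and Gpx1 was not tested.

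The labels were checked on Mettl14, which was 13.6 and 3.21 FPKM in control and d/d, a log2 ratio of -1.80. Estimated from the steps between low values, depth was near 17750000 fragments for the control and 20900000 for d/d. At that depth the lowest detected member, Gpx7, rests on about 1600 fragments in the control and 1614 in d/d over its coding transcript, so counting error is small beside the differences of Gpx1, Gpx3 and Gpx4. The spread between animals is unknown. None of 15 reference genes passed 2-fold (median 0.02).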

How the data were processed

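The authors deposited 1 table per library with a symbol, a gene ID and an FPKM value for each of 55483 rows. Per the submitters' processing notes they used HISAT2 2.2.1, Cufflinks 2.2.1 and the build mm10. The sources used here give neither the annotation release nor the strand setting. Cufflinks estimates FPKM from transcript models, so short transcripts, copies and overlapping genes make values less certain.

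Rows sharing a symbol were summed. Ratios of d/d to f/f were taken as log2 of (FPKM + 1), which understates the change of low genes. Genes that reached 1 FPKM in either library were counted as measured. A call is a ratio of at least 2-fold. With 1 library per genotype no test was made. Positions, transcripts and sequences were taken from GENCODE M21 (GRCm38, the same assembly as mm10), which held 55137 of the gene IDs. Depth was fitted on genes with 1 transcript of at least 2000 nt: 73.1% of 809 low values in f/f and 67.6% of 893 in d/d lay within 0.1 of whole fragments, and full length in place of effective length makes these depths approximate.

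Members and lists were chosen with earlier results of these data known. Named were all members, Mettl14, up to 4 genes past 2-fold with the largest ratios per list (else the 2 highest), the 5 genes nearest in pattern to the lowest and highest member, and genome neighbours; 1 gene within this rule is not reported here. Sequences were aligned with Biopython 1.88. The ratio, filter, rescaling, corrections and 2-fold count were tested on simulated libraries with large planted differences. The other steps, among them depth, sequence matching, pattern distance and centring on reference genes, were not tested in this way.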

Additional observations from a re-analysis of the deposited data

How the results depend on the processing

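With 1 library per genotype no spread between animals can be given and no replicate could be left out. No paired analysis was possible because each genotype has 1 library. A ratio was taken as moved when it shifted by over 1.5 times or crossed 2-fold. Gpx1, Gpx3 and Gpx4 stayed past 2-fold in the same direction under 9 alternatives each (pseudocounts of 0.1 and 5, rescaling to TPM or the upper quartile, centring on all or on reference genes, correction for GC content or level, and the highest row per symbol). Gpx1 ranged from 1.19 to 1.31 and Gpx3 from -5.58 to -5.46. Taking the highest row per symbol gave the same values for these genes as the sum, so that alternative is no check of them. Summing Gpx4 with Gpx4-ps2, chosen after seeing the data, gave 4.16 in place of 5.52. Over 11 alternatives, filters included, 2 members were higher and 1 lower. With a pseudocount of 5 the calls over all genes were 869 higher and 539 lower, against 1652 and 1346. The family ratio of 1.12 became 14.4 without Gpx3 and, chosen after seeing the data, 0.131 without Gpx4 and 1.97 without both.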

Other observations

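The letters GGACT, the commonest form of the sequence in which N6-methyladenosine is written, were counted on the sense strand of the longest coding transcript of each member. Gpx3 (1594 nt), Gpx4 (995 nt) and Gpx8 (1042 nt) held none. Gpx5 (1674 nt) held 3, Gpx1, Gpx2 and Gpx7 held 2 each, and Gpx6 held 1. Of 4136 genes whose longest coding transcript has 900 to 1700 nt, 77.1% held at least 1, with a median of 1. Other forms of the consensus were not searched, methylation was not analysed here, and a match or its absence in these letters is a description only.

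The annotated pseudogenes Gpx2-ps1 and Gpx4-ps1 were near 0. Gpx2-ps1 stood at 0.180 FPKM in f/f and had no signal in d/d, where Gpx4-ps1 stood at 0.183 FPKM after being listed at 0 in the other library.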
